A study of Mus musculus with 12 samples.

Results

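The 10 genes described here encode subunits of the BAF chromatin remodeling complex and a pair of chromodomain helicase (CHD) remodelers. The BAF subunits are forms that differ between neural progenitors and neurons, and the alternative ATPases Smarca2 and Smarca4. The 10 genes are Actl6a, Actl6b, Dpf1, Dpf3, Phf10, Ss18l1, Smarca2, Smarca4, Chd7 and Chd4, found by symbol among the 55385 genes of the deposited tables. All 10 passed the filter on low counts, as did 18091 genes in all. RNA-seq of polyadenylated RNA compared whole cerebellum of conditional EED knockout mice, labelled EED-/-, with that of wild-type (WT) mice, with 3 libraries per genotype. Both genotypes were on the C57BL/6 strain and were taken at postnatal day 14; the labels give no treatment, no Cre driver, no deleted exons and no statement that the libraries came from separate animals. P-values therefore measure the spread between these libraries. The protein made from Eed belongs to the core of Polycomb repressive complex 2, which places the repressive mark H3K27me3. The 6 ChIP-seq samples of the series were not analysed here.

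BAF complexes use the energy of ATP to slide or evict nucleosomes, and each complex carries 1 ATPase, Smarca4 (BRG1) or Smarca2 (BRM). In mouse brain development, dividing neural progenitors assemble complexes with Actl6a (BAF53a), Phf10 (BAF45a) and Ss18, and neurons that leave the cell cycle exchange these for Actl6b (BAF53b), Dpf1 or Dpf3 (BAF45b and BAF45c) and Ss18l1 (CREST). In mice the exchange at the BAF53 position involves the microRNAs miR-9-3p and miR-124, which act on Actl6a RNA and are themselves repressed by the factor REST outside neurons. Chd7 is a remodeler whose loss in mouse granule cell progenitors disturbs cerebellar growth, and Chd4 is the ATPase of the NuRD complex, which in mouse granule neurons takes part in synapse formation.

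The sequence of miR-9-3p and a match to it in Actl6a are shown first. Actl6a and Actl6b are the pair that names the switch, and the host transcript of 1 miR-9 gene is among the genes measured below. The mature miR-9-3p of RefSeq (GRCm38.p6) is given with its seed, bases 2 to 8, in capitals; the same sequence is produced from Mir9-1 on chromosome 3, Mir9-2 on chromosome 13 and Mir9-3 on chromosome 7. The 3' untranslated region of Actl6a (transcript Actl6a-201, 371 bases) holds 1 match to this seed, AGCTTTA, which starts at base 38. It is shown with the match in capitals, on the plus strand of chr3:32726626-32726655 in GRCm38. The same 7 bases occur in 10.4% of 20140 annotated 3' untranslated regions, and the miRNAs themselves were not measured.
mmu-miR-9-3p: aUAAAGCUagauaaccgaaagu
Actl6a site: acctcaacgtctgtAGCTTTAgtacactca

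Promoters, taken as 300-base windows around the RefSeq start sites (GRCm38.p6), were on hand for 9 of the 10 genes. The windows of Actl6a (chr3:32708296-32708595, plus strand), Actl6b (chr5:137553296-137553595, plus strand) and Dpf3 (chr12:83487687-83487986, minus strand) are printed. The first 2 are the switching pair, and Dpf3 is the BAF subunit among the 10 with the largest fall. Capitals mark the E-box, CANNTG, a motif of basic helix-loop-helix factors that reads the same on both strands.
Actl6a promoter: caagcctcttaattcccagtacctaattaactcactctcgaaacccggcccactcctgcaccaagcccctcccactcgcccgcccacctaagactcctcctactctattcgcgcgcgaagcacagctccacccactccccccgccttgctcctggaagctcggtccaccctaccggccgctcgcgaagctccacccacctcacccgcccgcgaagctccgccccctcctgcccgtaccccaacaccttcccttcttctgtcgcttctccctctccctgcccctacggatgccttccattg
Actl6b promoter: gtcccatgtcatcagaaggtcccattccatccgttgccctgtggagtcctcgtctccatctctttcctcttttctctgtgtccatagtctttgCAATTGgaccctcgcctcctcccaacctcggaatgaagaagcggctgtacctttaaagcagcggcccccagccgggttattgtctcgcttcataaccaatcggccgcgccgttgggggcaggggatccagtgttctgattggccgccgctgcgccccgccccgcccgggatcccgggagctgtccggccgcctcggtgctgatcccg
Dpf3 promoter: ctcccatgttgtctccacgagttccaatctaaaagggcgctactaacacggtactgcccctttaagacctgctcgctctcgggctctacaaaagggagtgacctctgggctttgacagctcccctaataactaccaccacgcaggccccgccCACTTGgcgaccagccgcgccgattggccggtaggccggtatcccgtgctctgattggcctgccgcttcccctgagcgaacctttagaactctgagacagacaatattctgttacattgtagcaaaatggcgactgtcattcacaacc
The Actl6b and Dpf3 windows hold 1 E-box each and the Actl6a window has no match to these letters; 72.3% of 32851 promoter windows hold at least 1. All 10 windows of the 9 genes hold 17 to 62 CG dinucleotides, against a median of 7 over all windows. Actl6a has 21, Actl6b 23 and Dpf3 17.

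Libraries held 20179578 to 20366173 estimated counts in EED-/- and 19621814 to 20205811 in WT, so that 1 CPM (counts scaled to a common library size, with TMM factors between libraries) is 18.6 to 21.3 counts. Eed itself had 11.6, 9.31 and 11.3 CPM in EED-/- libraries against 20.1, 26.6 and 23.5 CPM in WT libraries (log2 fold change -1.12, SE 0.154, adjusted p = 0.0015). Adjusted p-values throughout come from edgeR (quasi-likelihood test, Benjamini-Hochberg over the 18091 genes tested), with 0.05 as the threshold. Higher genes made up 45.5% of the calls. Scaling by the upper quartile made this 61.3% and by library size alone 58.6%, with shifts of 0.12 and 0.10 in the median log2 change over all genes. Mitochondrial transcripts took 6.45% to 8.04% of counts in EED-/- and 3.21% to 6.37% in WT libraries, the lowest being WT replicate 1.

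Of the 10 genes 5 fell in EED-/- cerebellum: Chd7, Dpf3, Smarca2, Actl6b and Chd4. None was called higher by edgeR, DESeq2 or limma-voom, and 0 were higher at an unadjusted p under 0.05. The 5 of 10 called lower stand beside 14.1% of all tested genes called lower, 11.7% called higher and 25.8% called in either direction. Among the 10777 genes with a mean of at least 10 CPM, where all 10 genes lie, 18.3% were lower and 8.79% higher. The 10 genes and the lists below were chosen with earlier results of these data known. Their counts beside these shares are therefore not a test of an excess. The count of lower genes was 3 without EED-/- replicate 1, EED-/- replicate 3 or WT replicate 3, when Actl6b and Chd4 lost their calls. The median log2 change of the 10 genes was -0.36, against -0.09 for genes at these levels. Chd7 and Dpf3 changed more than 3-fold, while the other three fell 1.37-fold to 1.51-fold. Libraries of the genotypes did not overlap for 6 of the 10 genes, as for 43.9% of all tested genes and 45.0% of genes at these levels. The authors' deposited table gives the same direction for all 10 genes and calls 5 lower and 0 higher. The cerebellum is a mixture of cells, and in bulk RNA fewer cells of a type and less RNA per cell cannot be told apart.

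**Figure D1:**
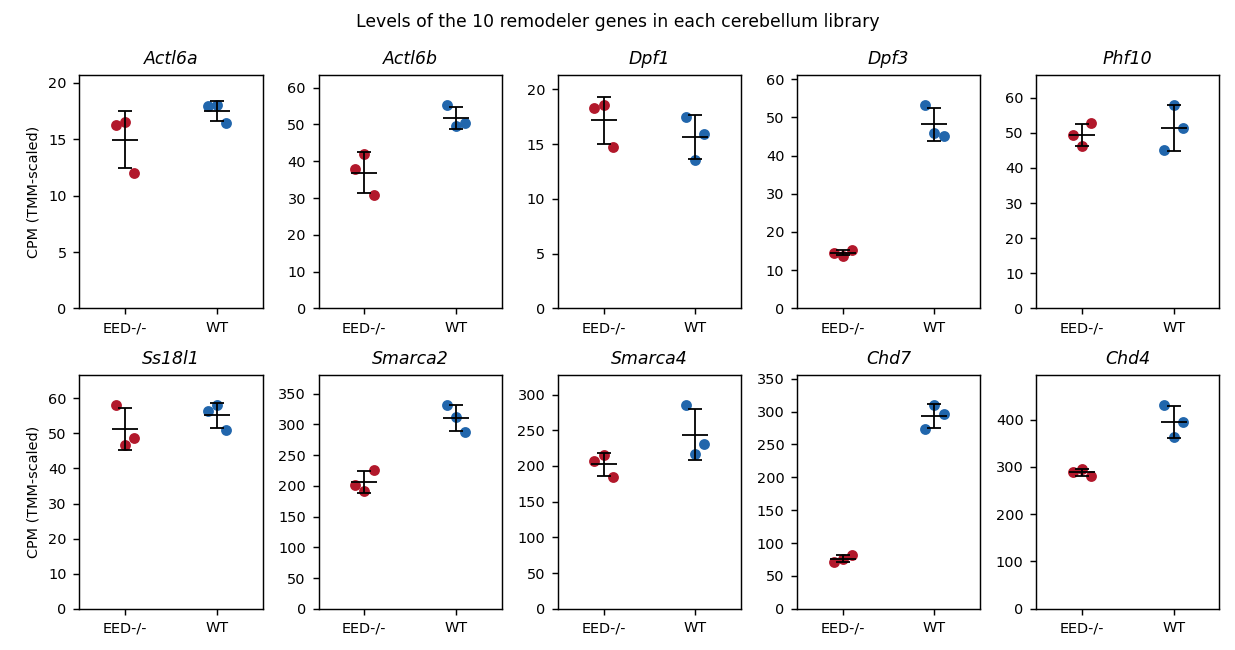
Level of each of the 10 genes in CPM (TMM-scaled, y axis from 0) in the 3 EED-/- libraries (left, red) and the 3 WT libraries (right, blue); points are libraries, bars are mean ± SD. Relative to WT, Chd7 and Dpf3 are lowest in EED-/-, 3.85-fold and 3.31-fold lower, with EED-/- libraries at 71.2 to 82 and 13.8 to 15.2 CPM.

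Dividing by the length of the principal transcript allows levels to be compared between genes, as CPM per kb. In EED-/- libraries the order of mean levels was Chd4 (43.1), Smarca2 (34.8), Smarca4 (31.8), Phf10 (29.7), Actl6b (23.2), Ss18l1 (11.8), then Chd7, Dpf1 and Actl6a at 7.45, 7.45 and 7.44, and Dpf3 (4.64 CPM per kb). In WT libraries it was Chd4 (59.1), Smarca2 (52.5), Smarca4 (38.4), Actl6b (32.5), Phf10 (30.9), Chd7 (28.7), Dpf3 (15.3), Ss18l1 (12.7), Actl6a (8.68) and Dpf1 (6.78 CPM per kb). Neighbours whose libraries overlapped in EED-/- were Smarca2 with Smarca4, Smarca4 with Phf10, and Chd7, Dpf1 and Actl6a with each other. In WT they were Chd4 with Smarca2, and each neighbouring pair in the run from Smarca4 through Actl6b and Phf10 to Chd7. These orders rest on the length taken: per kb of all annotated exons, Smarca2 came to 14.5 CPM per kb in EED-/- and 21.8 in WT, below Smarca4 at 31.2 and 37.7. On that length Chd7 came to 5.52 CPM per kb in EED-/-, above Actl6a (3.85), Dpf3 (3.44) and Dpf1 (3.20), and to 21.3 in WT, where it followed Chd4, Smarca4 and Smarca2.

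Both ATPases of the BAF complex were abundant, and Smarca2 (chromosome 19, 26605050 to 26778322, GRCm38) fell. Its level was 202, 191 and 227 CPM in EED-/- libraries against 331, 313 and 288 CPM in WT libraries. Every EED-/- library lay below every WT library. Smarca2 fell 1.51-fold (log2 fold change -0.59, SE 0.115, adjusted p = 0.00699), and the call held in all 13 alternatives, with log2 changes of -0.64 to -0.47. Smarca4 (chromosome 9, 21616169 to 21704230) had 207, 215 and 184 CPM in EED-/- against 285, 217 and 231 CPM in WT libraries. The ranges were separated only by the gap between 215 and 217 CPM, and Smarca4 was not called (log2 fold change -0.27, SE 0.134, adjusted p = 0.172). The log2 ratio of Smarca2 to Smarca4 within a library, which does not depend on scaling between libraries, was 0.03 ± 0.241 in EED-/- and 0.36 ± 0.16 in WT (SD, n = 3). The libraries overlapped, and EED-/- replicate 3 at 0.30 lay above WT replicate 1 at 0.22.

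At the BAF53 position the neuronal subunit Actl6b fell and the progenitor subunit Actl6a was not called. Actl6b (chromosome 5, 137553517 to 137569582), needed for dendrite growth in mouse neurons, had 38, 41.9 and 30.9 CPM in EED-/- against 55.3, 49.6 and 50.4 CPM in WT libraries. The genotypes did not overlap, and Actl6b fell 1.4-fold (log2 fold change -0.49, SE 0.134, adjusted p = 0.0285). This call ended in 7 of 13 alternatives, in which the adjusted p ranged up to 0.107. Scaling by the upper quartile gave 0.0757 and library size alone gave 0.0816. It was 0.091 and 0.107 without EED-/- replicates 1 and 3, and 0.0849 and 0.0775 without WT replicates 1 and 3. The log2 change stayed between -0.59 and -0.32 in all 13. Actl6a (chromosome 3, 32706298 to 32726973) had 16.3, 16.5 and 12 CPM in EED-/- against 17.9, 18 and 16.4 CPM in WT libraries. The genotypes overlapped, since EED-/- replicate 2 exceeded WT replicate 3 by less than 0.1 CPM, and the log2 change was -0.22 (SE 0.153, adjusted p = 0.322). Mrpl47 lies on the opposite strand across part of Actl6a, and the sources used here do not give whether counting used strand.

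Actl6a made up 25.3%, 23.8% and 23.6% of the summed CPM per kb of Actl6a and Actl6b in EED-/- libraries, against 20.4%, 22.4% and 20.5% in WT libraries. Every EED-/- library lay above every WT library, and the means were 24.2 ± 0.951% and 21.1 ± 1.09% (SD, n = 3). On the log2 scale the ratio of Actl6a to Actl6b differed by 0.26, and by 0.22 to 0.31 when single libraries were left out. Actl6b remained the more abundant of the pair in every library, at 74.7% or more of the pair in EED-/- and 77.6% or more in WT. Per kb of all annotated exons the mean share of Actl6b was 69.3% in EED-/- and 73.0% in WT.

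The BAF45 position showed the largest change among the BAF subunits described. Dpf3 (BAF45c; chromosome 12, 83213745 to 83487716), which reads acetylated histone tails and is also known from heart and skeletal muscle, had 14.6, 13.8 and 15.2 CPM in EED-/- against 53.2, 45.9 and 45.2 CPM in WT libraries. The genotypes were far apart relative to the spread within each, and Dpf3 fell 3.31-fold (log2 fold change -1.73, SE 0.118, adjusted p = 6.61e-05). All 13 alternatives kept the call, with log2 changes of -1.77 to -1.60. Dpf1 (BAF45b; chromosome 7, 29303951 to 29318243), the other neuronal form, was not called. It had 18.3, 18.6 and 14.7 CPM in EED-/- against 17.5, 13.5 and 16 CPM in WT libraries. Its log2 fold change was 0.13 (SE 0.153, adjusted p = 0.558) and the genotypes overlapped. The progenitor form Phf10 (BAF45a; chromosome 17, 14945009 to 14961273) had 49.2, 46.2 and 52.7 CPM in EED-/- against 45, 57.9 and 51.3 CPM in WT libraries. The EED-/- libraries lay within the WT range. The log2 change was -0.06 (SE 0.124, adjusted p = 0.773), and its sign turned with upper-quartile and library-size scaling. The gene 1600012H06Rik overlaps Phf10 on the opposite strand.

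Dpf2, the widely expressed paralogue at the same position and no member of the 10, had 50.1 ± 4.12 CPM in EED-/- and 69.5 ± 7.2 CPM in WT (SD, n = 3; log2 fold change -0.47, SE 0.121, adjusted p = 0.0219). Its call ended in 7 alternatives, with an adjusted p of 0.0683 (upper-quartile scaling), 0.0657 (library size alone) and 0.0652 to 0.1 without EED-/- replicate 1 or 3 or WT replicate 1 or 3. Among the 4 BAF45 genes, Dpf3 took 8.09%, 7.82% and 8.55% of the summed CPM per kb in EED-/- libraries, against 22.6%, 19.7% and 19.9% in WT libraries. Phf10 took 52.2 ± 3.4% in EED-/- and 41.8 ± 5.37% in WT, and Dpf1 took 13.1 ± 1.6% in EED-/- and 9.17 ± 1.16% in WT. The libraries of the genotypes did not overlap for any of these 3 shares, while those of Dpf2 did, at 26.6 ± 2.2% in EED-/- and 28.3 ± 2.74% in WT. Per kb of all annotated exons the share of Dpf3 was 14.1% in EED-/- and 32.1% in WT, and that of Dpf2 was 31.6% in EED-/- and 30.1% in WT, the opposite direction. Shares at a position were examined after the gene values were seen. They are shares of RNA, and whether the 4 BAF45 paralogues compete for a place in the same complex was not tested. Shares of 1 position sum to 100%, so the higher shares of Phf10 and Dpf1 accompany the lower share of Dpf3 without a change of their own levels being called. The log2 ratio of Phf10 to Dpf1 was planned before these shares were examined, though with earlier results of these data known. This ratio was 1.53 ± 0.275 in EED-/- and 1.71 ± 0.369 in WT (SD, n = 3), and the libraries overlapped. Its difference between genotypes ran from -0.36 to 0.0049 when single libraries were left out.

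**Figure D2:**
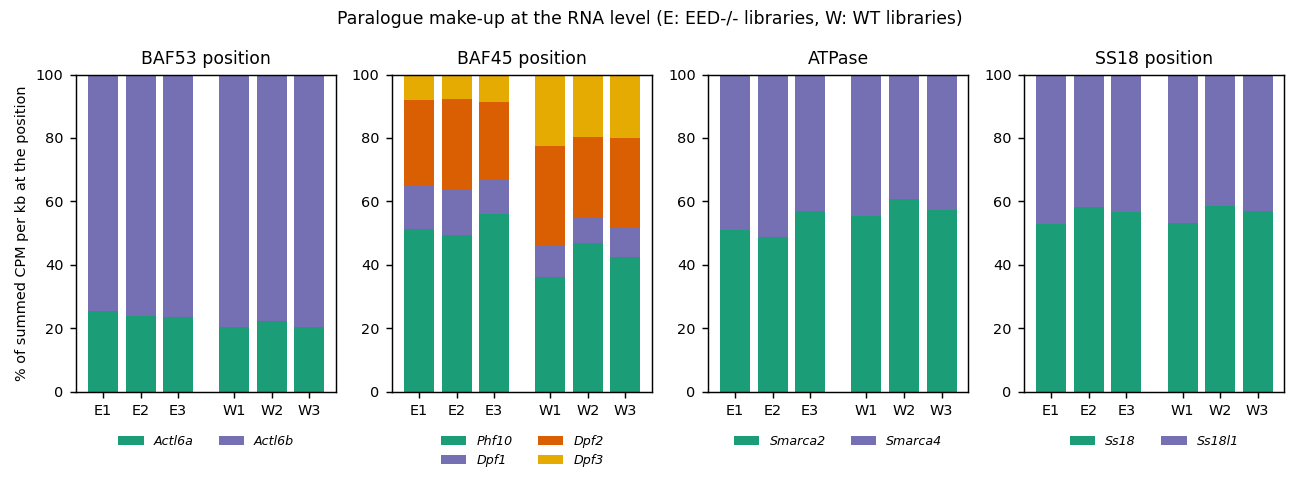
Share of each paralogue (stacked bars, % of the summed CPM per kb of principal transcript at the position) in EED-/- libraries 1 to 3 (E, left) and WT libraries 1 to 3 (W, right). Dpf3 takes 7.82% to 8.55% in EED-/- and 19.7% to 22.6% in WT libraries, while Ss18 averages 55.9% in EED-/- and 56.2% in WT.

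At the SS18 position neither paralogue was called. Ss18l1 (CREST; chromosome 2, 180042509 to 180070201), a calcium-responsive coactivator of dendrite growth in mouse neurons, had 58, 46.7 and 48.7 CPM in EED-/- against 56.4, 58 and 51 CPM in WT libraries. Its log2 fold change was -0.11 (SE 0.121, adjusted p = 0.556) and the genotypes overlapped. The progenitor paralogue Ss18 had 46.1 ± 0.497 CPM in EED-/- and 50.7 ± 6.87 CPM in WT (SD, n = 3; log2 fold change -0.14, SE 0.121, adjusted p = 0.442). The log2 ratio of Ss18 to Ss18l1 was -0.14 ± 0.156 in EED-/- and -0.13 ± 0.16 in WT (SD, n = 3), a difference smaller than either SD. Of the 4 neuronal subunits measured, Actl6b and Dpf3 therefore fell while Dpf1 and Ss18l1 were not called, and of the progenitor subunits Actl6a, Phf10 and Ss18 none was called by edgeR, DESeq2 or limma-voom.

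Chd7 had the largest change of the 10 genes. It lies on the plus strand of chromosome 4 at 8690406 to 8867659, and its principal transcript of 38 exons is the longest of the 10. Its level was 71.2, 75.1 and 82 CPM in EED-/- libraries against 274, 310 and 296 CPM in WT libraries. The lowest WT library held more than 3 times the level of the highest EED-/- library. Chd7 fell 3.85-fold (log2 fold change -1.95, SE 0.113, adjusted p = 4.03e-05), with log2 changes of -1.95 to -1.83 and a call in all 13 alternatives. The authors' deposited table lists a log2 fold change of -1.92 for Chd7. Over the 6 libraries the genes of at least 10 CPM whose log2 CPM followed Chd7 most closely were Eps8 (Pearson r = 0.999), Arhgap21 (r = 0.998) and Tshz1 (r = 0.998). The 6 libraries form 2 groups of 3, so the values describe these libraries alone, and 97 of 10776 genes had an r above 0.99. Their falls were smaller, with log2 fold changes of -1.42, -1.04 and -0.50 for Eps8, Arhgap21 and Tshz1 (adjusted p = 0.000115, 0.000336 and 0.00635 by edgeR).

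Chd4 (chromosome 6, 125095981 to 125130591), the most abundant of the 10 genes, fell less. It had 288, 295 and 281 CPM in EED-/- against 430, 363 and 395 CPM in WT libraries. The genotypes did not overlap, and Chd4 fell 1.37-fold (log2 fold change -0.46, SE 0.108, adjusted p = 0.016). The call ended with upper-quartile scaling (adjusted p = 0.0587). It also ended without EED-/- replicate 1, 2 or 3 (adjusted p = 0.0796, 0.0517 and 0.0744) and without WT replicate 3 (adjusted p = 0.0625). Its log2 change ran from -0.52 to -0.34 over the 13 alternatives. Its NuRD paralogue Chd3 had 499 ± 36.4 CPM in EED-/- and 494 ± 44.4 CPM in WT (SD, n = 3; log2 fold change 0.01, SE 0.117, adjusted p = 0.954). The neuronal paralogue Chd5 rose 1.81-fold, with 198, 187 and 176 CPM in EED-/- against 103, 90.7 and 116 CPM in WT libraries (log2 fold change 0.86, SE 0.122, adjusted p = 0.00182). The 3 NuRD ATPase genes thus had different outcomes: Chd4 called lower, Chd3 not called and Chd5 called higher.

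Among the 8 other CHD genes 2 fell and 1, Chd5, rose. With so few genes these counts are near the backgrounds of 14.1% lower and 11.7% higher over all tested genes, or 18.3% and 8.79% at 10 CPM or more. Chd8, a paralogue of Chd7 and a gene mutated in human autism, fell 1.4-fold, with 125 ± 3.84 CPM in EED-/- and 176 ± 14.8 CPM in WT (log2 fold change -0.49, adjusted p = 0.012); without EED-/- replicate 1 or 2 its adjusted p was 0.0666 and 0.0516. Chd9 had 135, 73.5 and 176 CPM in EED-/- against 401, 398 and 234 CPM in WT libraries (log2 fold change -1.42, SE 0.336, adjusted p = 0.0189). The spread of Chd9 within each genotype was wide, and its call ended without EED-/- replicate 1, WT replicate 1 or WT replicate 2 (adjusted p = 0.0636, 0.105 and 0.0948) and without the low-count filter (adjusted p = 0.144). Leaving out single libraries thus gave 0 to 2 lower CHD genes, with 0 when EED-/- replicate 1 was left out and 1 when EED-/- replicate 2, WT replicate 1 or WT replicate 2 was. Of the 11 NuRD partners of Chd4, 2 were called lower, a share close to the 14.1% of all tested genes and the 18.3% of genes of at least 10 CPM, so the count says nothing particular about them. Gatad2b, which links the parts of NuRD, had 95.7 ± 6.66 CPM in EED-/- and 164 ± 7.22 CPM in WT, a fall of 1.71-fold (adjusted p = 0.00148). The histone deacetylase partner Mta2 fell 1.5-fold (adjusted p = 0.00642), and no partner was higher by edgeR, DESeq2 or limma-voom, nor at an unadjusted p under 0.05.

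Of 22 other BAF subunits 11 fell and 2 rose, beside backgrounds of 14.1% lower and 11.7% higher over all tested genes (18.3% and 8.79% at 10 CPM or more), and their median log2 change was -0.39. The count of lower subunits was 6 without EED-/- replicate 1 or 3. Smarcd2 (BAF60b) fell most, at 21.8 ± 0.897 CPM in EED-/- and 70.1 ± 7.06 CPM in WT (SD, n = 3; log2 fold change -1.68, SE 0.117, adjusted p = 7.13e-05). This fall was of the size of that of Dpf3. The share of Smarcd2 among the BAF60 paralogues was 11.9 ± 1.99% of CPM per kb in EED-/- and 22.9 ± 1.79% in WT. Bicra, a subunit of the non-canonical BAF complex, fell 1.98-fold, Smarcc2 (BAF170) 1.62-fold and Arid2, a subunit of PBAF, 1.5-fold (adjusted p = 0.0035, 0.00554 and 0.00414). Smarcc1 (BAF155), the paralogue of Smarcc2, was not called (log2 fold change 0.19, adjusted p = 0.203), and its share of the pair was 18.3 ± 0.385% in EED-/- and 10.9 ± 1.03% in WT. The higher subunits were Bcl11b and Bcl11a, zinc finger factors that also act outside the complex. Bcl11b had 15.5, 15.4 and 13.9 CPM in EED-/- against 5.44, 6.6 and 5.79 CPM in WT libraries (log2 fold change 1.33, adjusted p = 0.000548), and Bcl11a rose 1.61-fold (adjusted p = 0.0021).

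**Figure D3:**
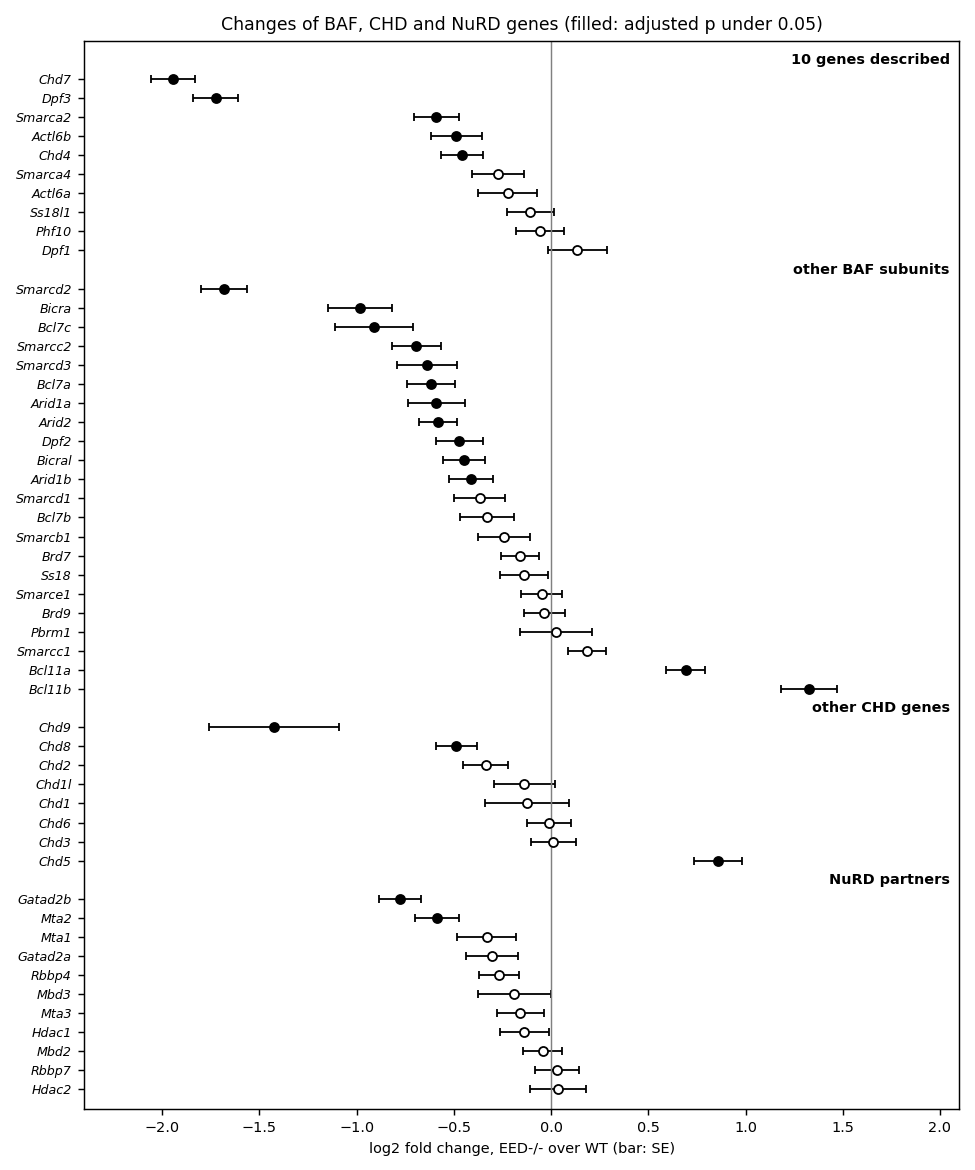
Log2 fold change of EED-/- over WT with its SE for the 10 genes, 22 other BAF subunits, 8 other CHD genes and 11 NuRD partners; filled points passed an adjusted p of 0.05. Chd7 and Dpf3 lie at -1.95 and -1.73, beside Smarcd2 at -1.68, and Bcl11b at 1.33 is the highest point.

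Of 19 genes of other SNF2-type remodelers or their partners 9 fell and 1 rose, with a median log2 change of -0.40. These 19 are called other SNF2 remodelers below. Over all tested genes 14.1% were lower and 11.7% higher (18.3% and 8.79% at 10 CPM or more), and 1 of 19 higher is near these shares. Cecr2, a partner of ISWI remodelers, fell 2.33-fold and Baz2a 1.97-fold (adjusted p = 0.000467 and 0.000366). Rad54l2, Ino80, Baz1b and Ep400 fell 1.43-fold to 1.55-fold. The call of Ep400 ended without EED-/- replicate 1 (adjusted p = 0.0507), and the lower genes then numbered 5. Baz1a, named after its values were seen because it was the gene called higher, had 4.94 ± 0.165 CPM in EED-/- and 2.71 ± 0.796 CPM in WT (log2 fold change 0.87, adjusted p = 0.0303). That call ended without EED-/- replicate 1, 2 or 3 or WT replicate 3, with adjusted p-values of 0.0613 to 0.0985.

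A list of 10 candidate switch regulators held Rest, REST corepressor genes, host transcripts of miR-124 and miR-9, and genes of RNA-binding proteins. The part of the RNA-binding protein genes in the BAF53 exchange was not tested. Of the 10, 5 fell and 1 rose, and 3 fell when EED-/- replicate 1 was left out. The backgrounds were 14.1% lower and 11.7% higher over all tested genes (18.3% and 8.79% at 10 CPM or more), and 1 of 10 higher is near them. The host transcripts of miR-124 moved in opposite directions. Mir124a-1hg (chromosome 14, 64587331 to 64593961) had 164, 156 and 184 CPM in EED-/- against 485, 614 and 453 CPM in WT libraries, a fall of 3.08-fold (adjusted p = 0.000204). Mir124-2hg (chromosome 3, 17789921 to 17808970) had 58.8, 48.9 and 59.2 CPM in EED-/- against 15.5, 35.8 and 28.7 CPM in WT libraries (log2 fold change 1.06, SE 0.268, adjusted p = 0.0223). WT replicate 1 was the lowest library for Mir124-2hg, and its call ended without EED-/- replicate 1, 2 or 3 or WT replicate 3 (adjusted p = 0.053 to 0.0785) and without the low-count filter (adjusted p = 0.0735). Mir9-3hg (chromosome 7, 79500026 to 79534403), the host of the Mir9-3 copy of the miR-9-3p printed above, had 20.6, 24.8 and 20.2 CPM in EED-/- against 30.7, 34.6 and 37.8 CPM in WT libraries. It fell 1.57-fold (adjusted p = 0.00878, and 0.0509 without EED-/- replicate 1). Gene counts of a host transcript do not measure the mature miRNA.

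The REST corepressors Rcor2 and Rcor1 fell 2.07-fold and 1.7-fold (adjusted p = 0.00509 and 0.00176). The neuronal RNA-binding protein gene Elavl3 fell 1.38-fold (adjusted p = 0.0133), and without EED-/- replicate 1 or 3 or WT replicate 3 its adjusted p was 0.0555 to 0.0705. Rest itself, named here after its values were seen, had 9.28, 10.5 and 11.4 CPM in EED-/- against 6.52, 8.64 and 7.18 CPM in WT libraries. The genotypes did not overlap but Rest was not called (log2 fold change 0.48, SE 0.165, adjusted p = 0.064). It was called higher with RLE, upper-quartile or library-size scaling (adjusted p = 0.0485, 0.0277 and 0.0314) and without WT replicate 2 (adjusted p = 0.0409).

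Genes in marker lists of several cell types were also called. The shares to set beside their counts are 14.1% lower and 11.7% higher over all tested genes (18.3% and 8.79% at 10 CPM or more). All 14 granule neuron markers were lower, with a summed level of 1013 to 1298 CPM in EED-/- and 5851 to 7233 CPM in WT libraries and a median log2 change of -2.77. Among them Gabra6 had 24 ± 10.6 CPM in EED-/- and 280 ± 67 CPM in WT, so this marker of cerebellar granule neurons was present in every library. The falls of Chd7 (-1.95) and Dpf3 (-1.73) were smaller than that median but lay within the range of the 14 markers, -4.20 to -0.39. Of 10 Purkinje markers 1 was lower and 0 higher by edgeR (2 higher at an unadjusted p under 0.05, 2 higher by DESeq2 and 1 by limma-voom), with a summed level of 4212 to 5747 CPM in EED-/- and 3944 to 4569 CPM in WT libraries. Of 9 tested granule progenitor markers 3 were lower and 2 higher (378.9 to 449.5 CPM in EED-/-, 421 to 468.3 CPM in WT). The defining progenitor marker Atoh1 was below the filter, with 1 to 12 counts per library. Proliferation markers were higher in 7 of 10 cases, at 109 to 140 CPM in EED-/- and 70.7 to 81.4 CPM in WT libraries.

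Of 10 interneuron markers 4 were lower and 2 higher (1253 to 1419 CPM in EED-/-, 1298 to 1445 CPM in WT), and of 10 glia markers 3 were lower and 1 higher (3473 to 5040 CPM in EED-/-, 4070 to 4393 CPM in WT). Oligodendrocyte markers were lower in 3 and higher in 2 of 10 cases, at 18617 to 20988 CPM in EED-/- and 18431 to 22497 CPM in WT libraries. In the granule progenitor, interneuron, glia and oligodendrocyte lists calls went in both directions. The lower glia genes were Slc1a3, Gdf10 and Hopx (log2 fold changes -1.49, -1.84 and -0.96), and Gfap (1.16) was higher. The lower oligodendrocyte genes were Mog, Opalin and Mobp (-0.62, -1.16 and -0.44), and Olig2 (0.52) and Pdgfra (0.56) were higher. A list may pool several types or stages of cell, so these counts neither show nor exclude a change in any of them. Microglia markers were higher in 8 of 10 cases (338 to 381 CPM in EED-/-, 193 to 200.4 CPM in WT) and meningeal markers in 8 of 8 (1268 to 1890 CPM in EED-/-, 697 to 775 CPM in WT). All 10 skeletal muscle markers were higher, at 109 to 151 CPM in EED-/- and 7.13 to 9.25 CPM in WT libraries; Ckm had no counts in WT replicates 1 and 2. Leaving out any single library gave 13 lower granule neuron markers. It gave 5 to 7 higher proliferation markers and 7 to 10 higher microglia markers. Without WT replicate 3 the higher meningeal markers numbered 5. The higher oligodendrocyte markers numbered 1 without EED-/- replicate 1 or 2 or WT replicate 2 or 3. The higher interneuron markers numbered 1 without EED-/- replicate 1, and the higher glia markers 2 without WT replicate 2. The higher Purkinje markers numbered 2 without WT replicate 1 and 1 without WT replicate 2. The lower interneuron markers numbered 2 without WT replicate 1, WT replicate 3 or any 1 EED-/- library, and the lower Purkinje marker lost its call in each case except without WT replicate 3. The part of these markers' cell types in the levels of the 10 genes was not tested.

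**Figure D4:**
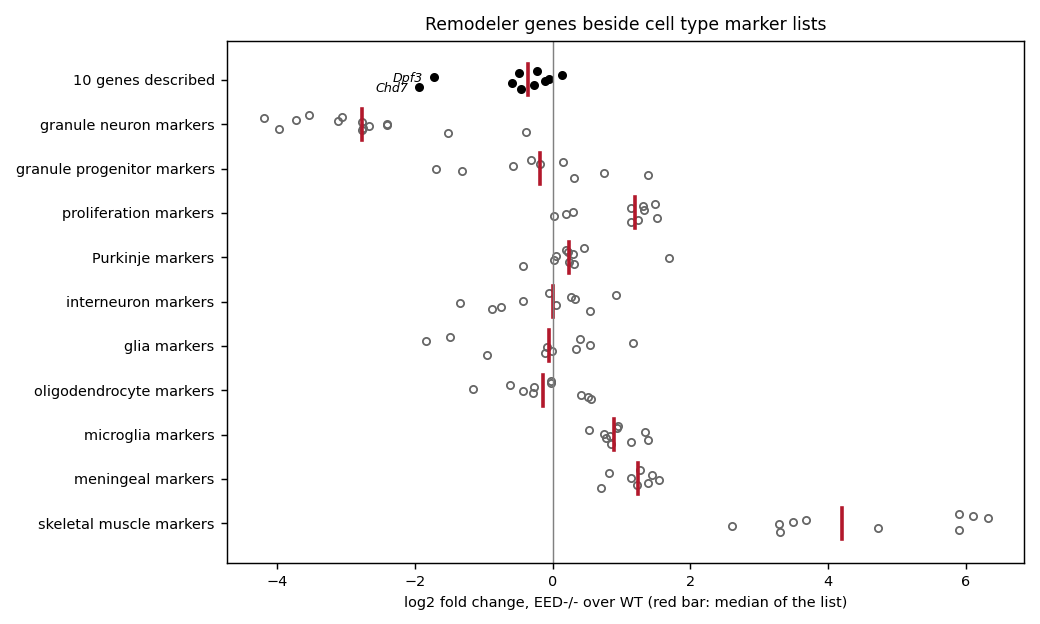
Log2 fold change of EED-/- over WT for the 10 genes (filled) and for marker lists of cerebellar and other cell types (open); each point is a gene and the red bar is the median of its list. Chd7 and Dpf3 lie between the median of the granule neuron markers at -2.77 and the median of the 10 genes at -0.36.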

How the data were processed

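Estimated counts per gene were deposited by the authors for 3 EED-/- and 3 WT libraries; 22.5% to 23.6% of values per library were not whole to within 1e-06. Salmon 1.1.0, Trimmomatic 0.36, MACS2, Bowtie2 2.4.1, DESeq2 1.26.0 and the builds mm10 and GRCm38 appear, without roles, in the submitters' processing notes; how strand was treated is not given there. For each gene the authors' deposited table of differences gives mean normalized signal, log2 fold change, its SE, a test score and a p-value, raw and adjusted, with column names of DESeq2; where p was missing (20212 genes) its adjusted p of 1 was not used. Symbols came from that table, positions and lengths from GENCODE (GRCm38), matched by Ensembl identifier.

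Counts were rounded, filtered with filterByExpr, scaled with TMM and tested with edgeR 4.0.16 in R 4.3.3 (glmQLFit and glmQLFTest, robust, genotype the only term, two-sided). Each SE is the absolute log2 change over the root of the F statistic. All values are mean ± SD over n = 3 unless libraries are listed. Alternatives were RLE, upper-quartile and library-size scaling, no filter, DESeq2 1.42.0, limma-voom (limma 3.58.1), a replicate block and leaving out each library; exon-union length, for levels per kb, was added after seeing the data. No replicate pair was a duplicate (chi-square over its degrees of freedom 8.36 to 55.2). The procedure was tested on simulated data. The members and lists were chosen with earlier results of these data known. Named genes are all members, their paralogues and up to 6 called genes per list by smallest adjusted p, plus those needed to describe a paralogue share and, chosen after their values were seen, Rest and Baz1a; genes like Chd7 were the 3 with the highest Pearson r of log2 CPM (prior count 2).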

Additional observations from a re-analysis of the deposited data

How the results depend on the processing

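Over 13 alternatives Chd7, Dpf3 and Smarca2 stayed called lower, and none of the 10 genes was called higher. The lower count among them was 3 with upper-quartile scaling and 3 with the replicate block, in which Actl6b and Chd4 were not called, and 3 to 5 when single libraries were left out. Phf10, not called, turned to a log2 change of 0.061 under upper-quartile and 0.042 under library-size scaling, and ran from -0.093 to 0.033 when single libraries were left out. Ss18l1 turned to 0.0084 under upper-quartile scaling. Chd3 ran from -0.065 to 0.12 when single libraries were left out, being negative at -0.033 without EED-/- replicate 1 and at -0.065 when WT replicate 2 was dropped. The cause was not tested.

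Deviations of same-numbered libraries of the genotypes had correlations of 0.03, -0.23 and 0.00 across genes for numbers 1 to 3. Those of differently numbered libraries ran from -0.19 to 0.20. With 3 libraries per genotype these values cannot show whether libraries were paired. The titles give numbers but state no pairing, and the replicate block result is given here alone. With the block, 0 other CHD genes were lower against 2 without it, and 0 other SNF2 remodelers were higher against 1. Without the low-count filter 1 other CHD gene was lower. Of the candidate switch regulators, those higher numbered 2 under RLE, upper-quartile or library-size scaling and 0 without the low-count filter, against 1. Leaving out single libraries gave 6 to 13 lower among other BAF subunits, 0 to 2 lower among other CHD genes, and 0 to 2 higher and 5 to 10 lower among other SNF2 remodelers. It gave 0 to 2 higher and 3 to 5 lower among the candidate switch regulators. Depth limits the 10 genes little: the lowest value was 246 estimated counts, for Actl6a in 1 library. Precision is limited by 3 libraries per genotype.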
